A study of Nothobranchius furzeri with 10 samples.

Results

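The genes described here are 109 genes whose transcript levels were consistently lower in livers of swim-tunnel killifish than in livers of fish without exercise, by a factor of at least 2. They were found among 15621 genes with enough reads to test, out of 26739 genes in the count table, and are 0.698% of the tested genes. A gene was taken when its mean level over the 10 livers lay from 1 to under 1000 CPM (the reads of a gene scaled to the effective size of its library), when its highest value among swim-tunnel livers lay below its lowest value among no-exercise livers, and when the ratio of group means, no-exercise over swim-tunnel, was 2 or more. The measured values of this same contrast chose the genes, so their lower level in swim-tunnel livers is given as a description and not as a test result.

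The 5 swim-tunnel livers and the 5 no-exercise livers, whose perturbation is labelled none, came from males, aged 10 weeks, of the turquoise killifish Nothobranchius furzeri, an annual fish with one of the shortest lifespans among vertebrates kept in the laboratory. Every fish of both groups was of the transgenic strain line 4010; Tg(mylz2:egfp,tfam). In zebrafish the mylz2 promoter is active in fast skeletal muscle, egfp encodes a green fluorescent protein, and tfam encodes a mitochondrial transcription factor that packages mitochondrial DNA. Non-transgenic fish were not analysed here, so the comparison holds only within this strain. How long or how fast the fish swam, and whether fish shared a tank, is not given in the sources used here, so differences in handling or housing cannot be told apart from exercise. Nothing states that the fish were reared separately, and p-values would measure only the spread between these samples.

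The liver stores glycogen, makes glucose, handles fatty acids and cholesterol, clears lactate and secretes most plasma proteins. In vertebrates it supplies working muscle with fuel during swimming or running, and many of its genes follow feeding state, time of day and hormone levels as well as activity. The files name genes only by identifiers, and 0 of the 26739 identifiers were found in the reference gene table of the species. The 109 genes can therefore not be ordered by role or pathway, liver and other cell type markers could not be looked up, and the genes are described by level, size of change, gene length and behaviour across livers. In whole liver, fewer cells of a type and less RNA per cell cannot be told apart.

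The 10 libraries held 26850938 to 40089247 counts. The scaling factors (TMM, which set the effective library sizes) averaged 1.07 ± 0.131 in swim-tunnel livers and 0.949 ± 0.151 in no-exercise livers (SD, n = 5 each). That difference was within the spread (exact permutation test, two-sided p = 0.23, adjusted over 2 measures 0.46). With 5 livers per group, such a test can miss a difference that matters. The lowest factor was 0.718, in no-exercise liver 4, and the other libraries had 0.896 to 1.21. A lower factor gives higher CPM for all genes of that library. Without the scaling factors, 52 of the 109 genes met the whole rule. Total counts did not differ beyond the spread either (exact permutation p = 0.96, two-sided, adjusted 0.96).

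The 109 genes are a small set, and 64 of them averaged under 10 CPM. Their mean level over 10 livers ran from 1.03 to 246 CPM, with a median of 8.15 CPM and quartiles of 2.93 and 24.4 CPM. The 13411 tested genes in the CPM range of the rule had a median of 9.51 CPM. In swim-tunnel livers the median member averaged 4.36 CPM, and in no-exercise livers 11.8 CPM. The ratio of group means, no-exercise over swim-tunnel, had a median of 2.73 with quartiles of 2.34 and 3.22. It reached 3 in 36 members and 4 in 14, and it stayed under 2.5 in 42. The fitted log2 change, swim-tunnel over no-exercise, had a median of -1.45 over the members, against -0.02 over all tested genes.

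The rule drew its lines through a continuous spread of genes. Within the CPM range, 521 genes had a ratio of 2 or more, and 412 of them had at least 1 swim-tunnel liver at or above a no-exercise liver. Every swim-tunnel liver lay below every no-exercise liver in 2.64% of all tested genes, and 252 such genes in the range were left out because their ratio was under 2. The 3 members nearest to the ratio limit had ratios of 2.01, 2.02 and 2.02, and the 3 genes just outside had 1.98, 1.97 and 1.97. For the member with the narrowest separation, the highest swim-tunnel liver stood at 5.776 CPM and the lowest no-exercise liver at 5.777 CPM. The nearest gene outside had 362.1 CPM in its highest swim-tunnel liver and 362.0 CPM in its lowest no-exercise liver. A further 25 separated genes with a ratio of 2 or more averaged under 1 CPM, and 1 averaged 1000 CPM or more.

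**Figure D1:**
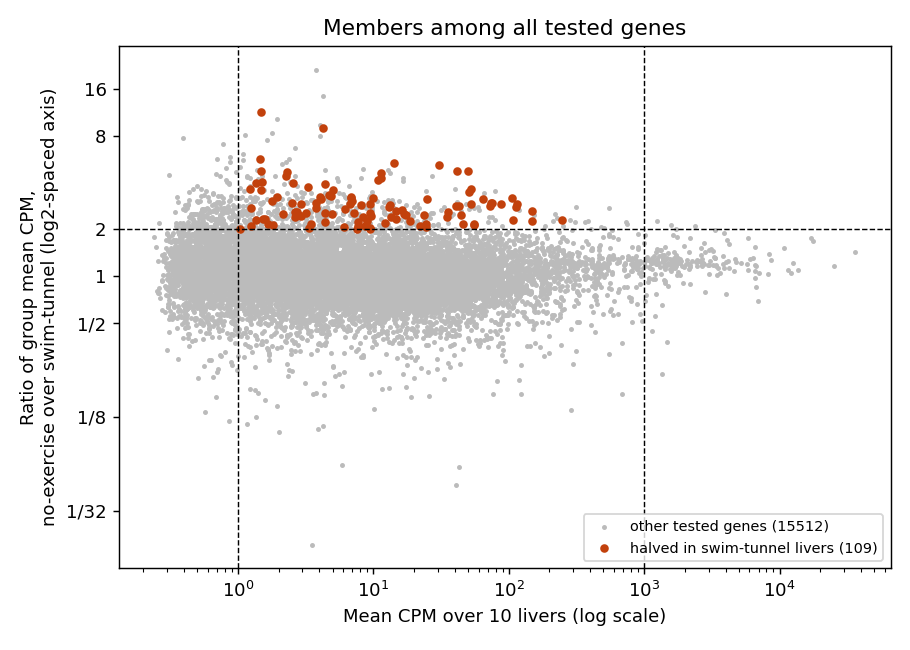
Ratio of group mean CPM, no-exercise over swim-tunnel (log2-spaced axis), against mean CPM over 10 livers (log axis) for each tested gene, with dashed lines at a ratio of 2 and at 1 and 1000 CPM. The 109 members (orange) lie among other genes (grey) of equal ratio whose livers overlap between the groups, and they span 1.03 to 246 CPM.

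The most abundant member was Nfu_g_1_000879, a gene of 6760 bases as counted. It stood at 151.9, 102.1, 155.4, 121.7 and 213.1 CPM in swim-tunnel livers 1 to 5, against 464.8, 476.9, 282.8, 259.2 and 230.0 CPM in no-exercise livers 1 to 5. All swim-tunnel livers were lower, but swim-tunnel liver 5 and no-exercise liver 5 lay close together, and no-exercise livers 1 and 2 stood well above the other three. The means were 149 ± 42.1 CPM in swim-tunnel and 343 ± 118 CPM in no-exercise livers (SD, n = 5 each), and the fitted log2 change was -1.20 with an SE of 0.269. Per kilobase of gene these means were 22.0 and 50.7 CPM.

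Among members averaging 10 CPM or more, Nfu_g_1_010862, a gene of 8795 bases, had the largest ratio, 5.31. It stood at 2.998, 4.546, 6.551, 2.558 and 5.709 CPM in swim-tunnel livers 1 to 5, against 25.02, 33.91, 18.63, 19.61 and 21.53 CPM in no-exercise livers 1 to 5. These values rested on 98 to 169 reads in a swim-tunnel library and 415 to 993 in a no-exercise library. Among genes lower in swim-tunnel livers, no other tested gene had so wide a gap between the groups relative to its level: the lowest no-exercise liver was 2.84 times the highest swim-tunnel liver.

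The member with the largest ratio of all, 11.3, was much rarer, and its ratio rested on few reads. Its swim-tunnel livers 1 to 5 had 0.372, 0.238, 0.155, 0.287 and 0.153 CPM, against 2.93, 4.23, 4.21, 1.75 and 0.487 CPM in no-exercise livers 1 to 5. In reads, these were 18, 8, 4, 11 and 4 in swim-tunnel libraries and 102, 124, 142, 37 and 15 in no-exercise libraries. No-exercise liver 5 lay near the swim-tunnel livers and the other no-exercise livers far above them. The next member by ratio, at 8.98, showed another shape, with 0.579, 0.713, 0.775, 1.25 and 0.920 CPM in swim-tunnel livers and 4.85, 18.2, 3.73, 2.84 and 8.48 CPM in no-exercise livers. Of the 36 members with a ratio of 3 or more, 24 averaged under 10 CPM.

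**Figure D2:**
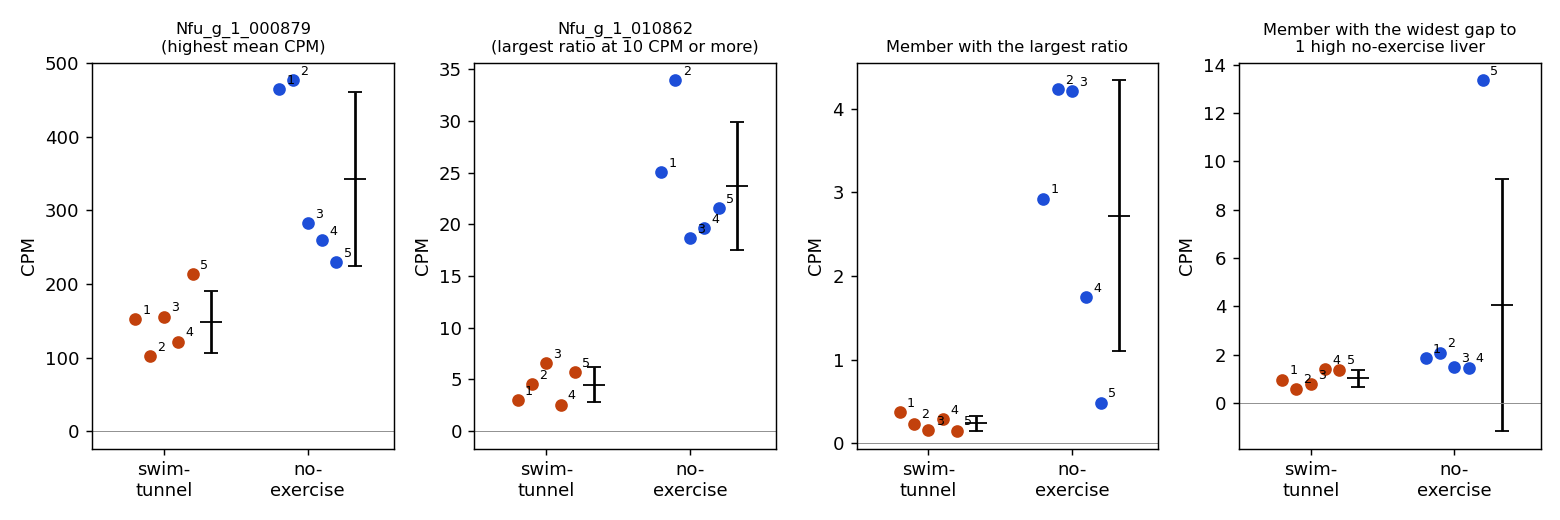
CPM of 4 members in each liver (points, numbered by replicate), with the mean and SD of each group of 5 as bars. The groups do not overlap, as the rule required; in the right-hand panel no-exercise liver 5 alone stands at 13.35 CPM while no-exercise livers 1 to 4 lie between 1.465 and 2.083 CPM.

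The distance between the groups was small for many members. The lowest no-exercise value exceeded the highest swim-tunnel value by a median factor of 1.23. That factor was under 1.1 in 23 members, 1.5 or more in 22 and 2 or more in 7. One of these 7, a gene of 936 bases with a ratio of 5.18, had 9.88, 5.97, 14.5, 5.61 and 13.3 CPM in swim-tunnel livers against 45.8, 60.1, 47.3, 68.2 and 33.6 CPM in no-exercise livers. Another, of 1299 bases, had 3.06, 2.38, 5.35, 2.32 and 7.20 CPM in swim-tunnel livers against 18.6, 18.6, 26.8, 14.6 and 14.6 CPM in no-exercise livers. In both, swim-tunnel livers 3 and 5 were the nearest to the other group.

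Members were found at each level of abundance. They made up 64 of 6891 tested genes from 1 to under 10 CPM (0.929%), 38 of 5778 from 10 to under 100 CPM (0.658%) and 7 of 742 from 100 to under 1000 CPM (0.943%). The median ratio was 2.71, 2.80 and 2.63 in these classes. The 140 genes that met the mirror-image rule, at least 2 times higher in swim-tunnel livers, were spread differently, at 0.653%, 1.4% and 1.89%, so the rarer genes held more members than mirror-image genes and the commoner genes fewer. These shares are a description with no test.

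Added together, the 109 genes were a minor part of the liver's transcripts. Their summed level was 1312, 1264, 1557, 1152 and 1701 CPM in swim-tunnel livers 1 to 5, against 4384, 4742, 3392, 3399 and 3023 CPM in no-exercise livers 1 to 5. On this scale, which uses TMM factors, swim-tunnel livers 3 and 5 were the highest of their group, and no-exercise livers 1 and 2 of theirs. The mean was 1397 ± 225 CPM in swim-tunnel livers and 3788 ± 735 CPM in no-exercise livers (SD, n = 5 each), and the 5 most abundant members held 29.7% of the sum. As a plain share of counts, with no scaling factor, the members took 0.158%, 0.143%, 0.140%, 0.133% and 0.165% of the counts in swim-tunnel libraries 1 to 5, against 0.439%, 0.427%, 0.342%, 0.244% and 0.338% in no-exercise libraries 1 to 5. With TMM factors, the rule itself ensured that the sums of the groups did not overlap. The plain shares of the same chosen genes did not overlap either, which is no separate evidence. The order within the groups changed on the plain scale. Swim-tunnel livers 5 and 1 were the highest of their group and liver 3 was second lowest. The lowest no-exercise liver was 4 in place of 5.

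With TMM factors, the order of the livers by the members ran partly opposite to their order by the 140 mirror-image genes. Those summed to 9588, 8921, 7704, 10544 and 8672 CPM in swim-tunnel livers 1 to 5, against 2913, 2601, 3464, 3695 and 2565 CPM in no-exercise livers 1 to 5. Swim-tunnel liver 4 was lowest for the members and highest for the mirror-image genes, and swim-tunnel livers 3 and 5 were the 2 highest for the members and the 2 lowest for the mirror-image genes. In the no-exercise group, liver 2 was highest for the members and second lowest for the mirror-image genes, but liver 5 was lowest for both. Swim-tunnel livers 3 and 5 also had the 2 lowest TMM factors of their group, 0.896 and 0.972, and liver 4 had 1.15. The mirror-image sums were not computed without these factors. How far the opposite order rests on the factors was not tested.

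**Figure D3:**
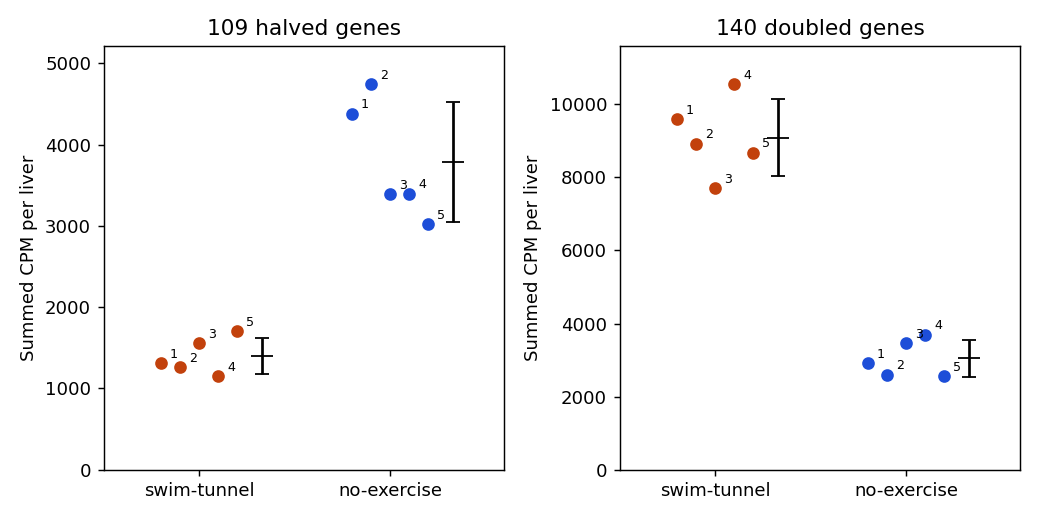
Summed CPM of the 109 members (left) and of the 140 mirror-image genes (right) in each liver, numbered by replicate, with the mean and SD of each group of 5. Swim-tunnel sums of the members lie between 1152 and 1701 CPM, below all no-exercise sums of 3023 to 4742 CPM, as the rule ensures.

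Gene by gene, on the same scale with TMM factors, the same livers recurred. These ranks were not repeated without the factors. Swim-tunnel liver 4 had the lowest swim-tunnel value in 47 of the 109 members (43.1%), while it did so in 14.2% of all 13411 tested genes in the CPM range. Swim-tunnel liver 3 was the highest of its group in 35 members and liver 5 in 36, which are 32.1% and 33.03%, against 24.8% and 24.4% of tested genes in the range. In the no-exercise group, liver 1 was highest in 28 members, liver 2 in 37, liver 3 in 11, liver 4 in 14 and liver 5 in 19. Liver 2 was thus highest in 33.9% of members but in 10.2% of tested genes in the range. For liver 1 these shares were 25.7% and 15.9%. Livers 3, 4 and 5 were highest less often among members, in 10.1%, 12.8% and 17.4%. Among tested genes in the range their shares were 23.15%, 28.0% and 22.7%. No-exercise livers 4 and 5 most often came nearest to the swim-tunnel livers, with the lowest no-exercise value in 34 and 32 members. These are 31.2% and 29.4%, against 22.7% and 23.2% of tested genes in the range. Livers 4 and 5 were also the most often lowest of their group among those tested genes.

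The members were also sorted by the no-exercise liver in which they were highest. The sorting itself makes that liver the highest no-exercise liver in each sum. Tested genes in the range were not summed in this way for comparison. The 28 members highest in liver 1 summed to 387 to 506 CPM in swim-tunnel livers, against 1855, 1628, 1067, 1049 and 973 CPM in no-exercise livers 1 to 5, so liver 2 was also high for them. The 37 members highest in liver 2 summed to 493 to 786 CPM in swim-tunnel livers and to 1790, 2258, 1505, 1344 and 1245 CPM in no-exercise livers. The 14 members highest in liver 4 had 145.5 to 287.4 CPM in swim-tunnel livers and 503, 602, 565, 783 and 460 CPM in no-exercise livers. Within swim-tunnel livers these 14 were highest in livers 3 and 5, at 269.5 and 287.4 CPM. The 11 members highest in liver 3 were few and rare, with sums of 43.5 to 68.5 CPM in swim-tunnel livers and 118 to 166 CPM in no-exercise livers.

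The 19 members highest in no-exercise liver 5 formed the most uneven group. Their sums were 53.6, 53.2, 53.8, 52.4 and 54.2 CPM in swim-tunnel livers 1 to 5, against 112, 120, 88.2, 98.8 and 226 CPM in no-exercise livers 1 to 5. The swim-tunnel livers were nearly equal, and no-exercise liver 5 stood far above the rest of its group. The sorting put liver 5 highest of its group for each of these genes, so its lead is partly set by that choice. Of these 19 genes, 18 averaged under 10 CPM, and their median ratio of means of 2.396 compared with a median ratio of medians of 2.04.

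In 11 members, 1 no-exercise liver lay so far above the others that the gap exceeded 0.71 of the group's range, and in 8 of the 11 that liver was number 5. Such a gap is common in these data, at 10.7% of tested genes in the CPM range and 10.1% of the members; with liver 5 as the high one it was 4.62% and 7.34%. The widest gap belonged to a member with 0.972, 0.594, 0.775, 1.41 and 1.38 CPM in swim-tunnel livers, against 1.865, 2.083, 1.481, 1.465 and 13.35 CPM in no-exercise livers. For the 8 genes the ratio over all livers ran from 2.04 to 4.74, and with no-exercise livers 1 to 4 alone it ran from 1.398 to 2.583, with 3 of the 8 at 2 or more. Over all members, 91 of 109 also had a ratio of 2 or more between group medians, and 18 did not.

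**Figure D4:**
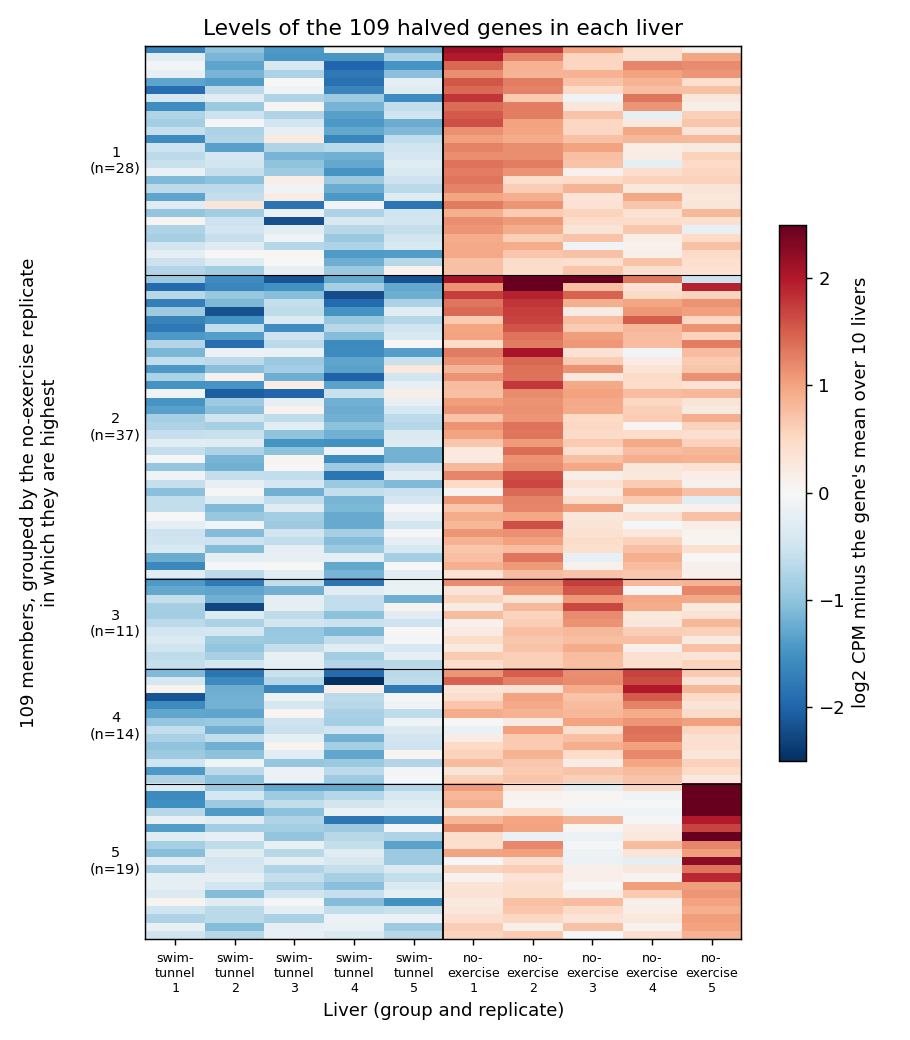
Log2 CPM of the 109 members in each liver, relative to the gene's mean over the 10 livers (colour, cut at 2.5 either way), grouped by the no-exercise replicate in which the gene is highest (n = 28, 37, 11, 14 and 19). Swim-tunnel livers are on the left and lower throughout, as the rule required. In the bottom group no-exercise liver 5 stands out from no-exercise livers 1 to 4, which the sorting partly sets.

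Within a group, the members varied somewhat more than other genes of their range. The SD of log2 CPM between livers had a median of 0.484 over the members in swim-tunnel livers and 0.415 in no-exercise livers, against 0.334 and 0.353 over all tested genes in the CPM range. Mirror-image genes also lay above these tested genes, with medians of 0.3945 in swim-tunnel and 0.4035 in no-exercise livers. Ranked by the within-group SD among these tested genes, the median member lay at the 69.4th percentile and the median mirror-image gene at the 57.5th. Among the top 10% of this ranking were 5 of 109 members and 10 of 140 mirror-image genes. Both rules required groups without overlap, which tends to leave out the most variable genes. The ratio of group means can work the other way and let in genes raised by 1 high liver. These SDs, ranks and shares are therefore partly set by the choice of genes. Levels were not matched: the median mean level in swim-tunnel livers was 4.36 CPM for members and 9.50 CPM for these tested genes. After the group means were removed, pairs of members were correlated over the 10 livers with a median Pearson r of 0.13 (5886 pairs), where pairs of any tested genes in the range had a median of -0.001. Pairs of mirror-image genes had a higher median than pairs of members, 0.24. Pairs of 1 member and 1 mirror-image gene had a median of -0.17. All pairs share the same libraries and scaling factors, and these values are a description with no test.

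Gene length, which the rule did not use, was somewhat greater for the median member than for the median gene of its range. The length as counted, recovered from the deposited RPKM, had a median of 3386 bases over the members, with quartiles of 1689 and 5622, and of 2947 bases over the tested genes in the CPM range, with quartiles of 1500 and 5048. The mirror-image genes had almost the same median length as the members, 3371 bases, with quartiles of 1707 and 5088. Genes of 5000 bases or more were 35 of the 109 members (32.1%) and 25.4% of tested genes in the range. Per kilobase of gene, the median member averaged 1.56 CPM in swim-tunnel livers and 4.53 CPM in no-exercise livers. The 3 highest members on this scale were short, at 684, 477 and 198 bases. They averaged 33.5, 43.0 and 27.02 CPM per kilobase in swim-tunnel livers and 117, 104 and 68.9 CPM per kilobase in no-exercise livers.

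The members were scattered through the table. No 2 members stood in adjacent rows, against 10 such pairs among the 140 mirror-image genes. Within 5 rows stood 4 pairs of members that followed each other, against 15 pairs of mirror-image genes. What the order of rows follows is not given in the sources used here. Of 140 tested genes in the rows next to a member, 7 were called lower by edgeR (5.0%) and 1 higher (0.71%), with a median log2 change of -0.13. Of all tested genes, 1.25% were called lower and 2.04% higher. Mirror-image genes showed the like in their own direction. Of 181 tested genes next to them, 8 were called higher (4.42%) and 1 lower (0.55%). One pair of members had consecutive identifiers and similar lengths, 828 and 951 bases. The first had 3.16, 1.34, 2.52, 0.835 and 1.19 CPM in swim-tunnel livers against 9.01, 6.04, 4.83, 7.75 and 7.501 CPM in no-exercise livers. The second had 2.25, 1.16, 1.51, 0.757 and 1.26 CPM in swim-tunnel livers against 5.85, 4.68, 4.74, 5.25 and 5.58 CPM in no-exercise livers. In both, swim-tunnel liver 1 was the highest of its group and liver 4 the lowest. Whether such neighbours overlap or share reads as near-identical copies was not tested.

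In edgeR's quasi-likelihood fit over all 15621 genes, 88 of the 109 members passed an adjusted p of 0.05, where 1.25% of all tested genes were called lower in swim-tunnel livers. Because the rule used the same contrast, that high share is set by the choice of genes. By limma-voom 87 members were called, with 1.33% of tested genes called lower, and by DESeq2 106, with 4.57%. The 21 members that edgeR did not call had a median ratio of 2.62, close to the 2.75 of the 88. They were rarer, at a median of 2.32 CPM against 9.57 CPM, and more uneven in no-exercise livers, with a median coefficient of variation of 50.02% against 27.2%. In the other direction, 108 genes called lower were not members: 64 were separated but had a ratio under 2, 31 overlapped between the groups and 13 lay outside the CPM range.

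Membership depended on how libraries were scaled. With library totals in place of TMM factors, all 109 genes still had the higher mean in no-exercise livers, but 62 stayed separated, 88 kept a ratio of 2 or more and 52 met the whole rule. With RLE factors 109 met it and with upper-quartile factors 108. In the deposited RPKM, most values of which were divided by the total of another library, 35 of the members met it.

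Single livers also set the edges of the group. Without no-exercise liver 4, 243 genes met the rule, among them all 109 members, and without swim-tunnel liver 3 or 5 there were 208 and 186. No-exercise liver 4 also had the lowest scaling factor of all libraries, 0.718. Whether that factor bears on these counts was not tested. Of the 412 genes that were kept out only by overlap, 64 would have been separated by leaving out no-exercise liver 4 and no other liver, and 0 by leaving out no-exercise liver 2 alone. Fewer livers make separation easier, so such counts tend to rise with a removal, although genes can then miss the ratio or the CPM range. Without no-exercise liver 5, 119 genes met the rule and 95 of the members were among them.

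With 1 liver left out, the calls on members moved more than the number of the 109 that met the rule. Genes separated over all livers nearly always stay separated when 1 is removed, so that number was largely set by their choice. The ratio and the CPM range can still be missed, and the number ran from 95 without no-exercise liver 5 to 109 without no-exercise liver 4. The calls fell to 33, 47 and 23 without swim-tunnel liver 1, 2 or 4, and to 39 and 25 without no-exercise liver 1 or 2. The number of all genes called lower fell with them from 196, to 41, 82 and 28 without those swim-tunnel livers and to 53 and 28 without those no-exercise livers. In the fits with 1 library left out in turn, 20 members were called in all 10 fits, 73 in some and 16 in none, and all 109 had a negative log2 change in each, as the choice of non-overlapping genes ensures. Nfu_g_1_010862 was called in all 10, and Nfu_g_1_000879 in 3. The same split was not counted over all tested genes, and the rule used this contrast. These counts therefore do not show that members were called more steadily than other genes.

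**Figure D5:**
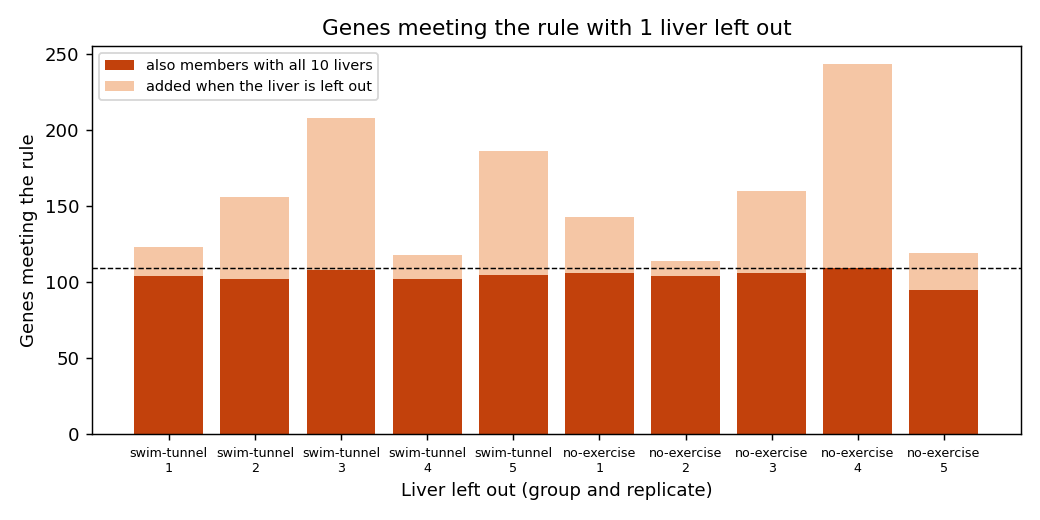
Number of genes meeting the rule when the liver on the x axis is left out, split into those that are also among the 109 (dark) and those added (light), with a dashed line at 109. The count is highest without no-exercise liver 4, at 243, and lowest without no-exercise liver 2, at 114.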

How the data were processed

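Liver RNA of 10 fish was sequenced from libraries made with the TruSeq RNA kit v2, per the labels' protocols. The tools in the submitters' processing notes are featureCounts (1.4.6-p4), STAR (2.4.1d) and bcl2fastq (1.8.4). For genome build, annotation and strand setting nothing is given in the sources used here, so reads of a gene and of an antisense or overlapping gene cannot be told apart. The deposited counts are whole reads per gene, not normalized. The deposited RPKM values were used only to recover gene lengths: of cells with counts above 0, 99.994% matched, within 0.0011 RPKM or 0.05%, the count divided by length and a library total that steps through the libraries from row to row, and 12.9% matched with the library's own total.

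Livers carry the numbers 1 to 5 in each group by order of accession, which pair no samples. Genes were kept by filterByExpr of edgeR 4.0.16 (minimum count 10, minimum total 15; R 4.3.3), leaving 99.91% of counts. CPM used TMM factors. The test was edgeR's quasi-likelihood test of group, two-sided, with Benjamini-Hochberg adjustment over 15621 genes and a threshold of 0.05; SEs are the log2 change over the root of its F statistic. The test was tried on simulated counts, and the rule on a small hand-written table with known members. Other settings used DESeq2 1.42.0, limma 3.58.1, other factors and filters, and left-out libraries.

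The members and gene lists were chosen with earlier results of these data known. No identifier matched the reference table (NfurGRZ-RIMD1), so no gene list was tested. The identifiers printed follow a rule: the member with the highest mean CPM, and the one with the largest ratio among those averaging 10 CPM or more. Members described without identifiers were picked after their values were seen.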

Additional observations from a re-analysis of the deposited data

How the results depend on the processing

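With all 10 libraries, 109 genes met the rule, edgeR called 88 of them, and it called 196 genes lower and 318 higher. Genes meeting the rule numbered 56 with library totals, 115 with RLE factors, 128 with upper-quartile factors, 243 at a ratio of 1.5 and 36 at a ratio of 3. They numbered 114 to 243 with 1 library left out. In settings chosen after seeing the data, they numbered 41 on the deposited RPKM and 56 on RPKM recomputed from the counts. Most deposited RPKM values used the total of another library. Recomputed RPKM use library totals again, and gene length does not alter a comparison within a gene, so that 56 is no separate check. Members called numbered 57 with limma on log2 of recomputed RPKM plus 1 or plus 0.1, 23 to 87 with 1 library left out, and 0 without both swim-tunnel replicate 2 and no-exercise replicate 5, also chosen afterwards. Without that pair edgeR called 0 genes lower and 0 higher, with 1459 lower and 1435 higher genes and 107 members at an unadjusted p under 0.05, and limma-voom called 4 lower genes, all members, and 4 higher. Genes called lower numbered 90 with library totals, 118 with no filter, 714 with DESeq2, 517 at an adjusted p under 0.10, and 81 and 82 on recomputed RPKM with pseudocounts of 1 and 0.1. Genes called higher numbered 905 with DESeq2 and 712 at 0.10. With library totals they were 465 and on recomputed RPKM 402 and 425, so the balance of higher to lower calls shifted towards higher under that scaling. Upper-quartile factors shifted it the other way, with 229 genes called lower and 257 higher. With 1 library left out, genes called numbered 28 to 330 lower and 51 to 493 higher. The members' median log2 change, -1.45, was -0.84 and -1.16 on log2(recomputed RPKM + 1) and + 0.1, -1.26 with library totals on counts, which recomputed RPKM also use, and -1.50 to -1.36 with 1 library left out. The summed level of the members, a log2 difference of -1.43, lay between -1.52 and -1.25 with RLE factors, library totals, without the 5 most abundant members, and with 1 library or that pair left out; it was not computed in the other settings. The median member was 557 bases longer than the median of the other tested genes and 440 longer than that of other genes in its CPM range. Why these values moved was not tested. No result changed direction, but the members were chosen as lower in every swim-tunnel liver, so their changes could hardly reverse. No paired analysis was possible because the labels give the groups no shared replicate numbers.

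Counting limits the rarest members: 3 of 109 had a library under 10 reads and 0 had a library at 0.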
